A study of Mus musculus with 13 samples.

Results

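The genes described here are 8 inhibitors of the proteases that break down elastin and other matrix proteins, out of 31053 genes measured in single mouse lung cells. They were taken by name: Timp1, Timp2 and Timp3, Cst3 and Cstb, and Slpi, Serpina3n and Serping1. All 8 were detected in the lung libraries. The study was built on elastase-induced emphysema in C57BL/6 mice. Its single-cell groups, with 1 mouse each, were asthma (sensitized and challenged with ovalbumin), PPE-emphysema (weekly instillations of porcine pancreatic elastase into the trachea), PPE-recovery (a single instillation) and control. A further 9 samples are labelled acute injury, emphysema or Con, and no file could be tied to them. The asthma mice are named as wild type and no altered gene is named for the other groups. The labels and methods do not state ages. The cells came from protease-dissociated whole lung, so the numbers of cells of each type depend on how well each type survived dissociation.

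The counts were deposited as 1 matrix whose barcodes carry 7 library numbers, and nothing in the labels ties a number to a group. Libraries are therefore given by number, no library was compared as a treatment, and nothing was tested, since each library stands alone and its cells do not replicate a condition. Libraries 1, 2, 3 and 7 hold lung cells. After removal of barcodes with more than 10% mitochondrial counts, 20856 cells remained, from 3301 in library 7 to 7626 in library 2, with median depths of 6800 to 8364 unique molecular identifiers (UMIs, each marking 1 captured RNA molecule). Among these cells, 50 of 20806 distinct barcode sequences occurred in more than 1 library. Clustering without the inhibitors and their listed target proteases gave 44 clusters, of which 38 were named from markers in 25 classes, each of them called "-like", and 662 cells stayed unnamed. The class named type 1 dendritic cell-like was mixed. Of its cells, 430 held UMIs of type 2 dendritic cell markers alone, and 327 held those of type 1 markers alone. The median depth of the 287 eosinophil-like cells was only 575 UMIs. Levels are UMIs of a gene per 1000000 UMIs of the cells named (CPM). Brackets hold exact 95% Poisson intervals for CPM and exact 95% binomial intervals for shares of cells, and these reflect counting error alone, not the spread between mice.

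As background, proteases and their inhibitors are kept in balance in the healthy lung, and emphysema follows when elastin is degraded faster than it is replaced. The tissue inhibitors of metalloproteinases (TIMPs) bind matrix metalloproteinases in the extracellular space, and TIMP3 differs from the others in being held in the matrix itself. Cystatin C, the product of Cst3, is a secreted inhibitor of cysteine cathepsins, while cystatin B, the product of Cstb, works inside the cell. SLPI is a secreted inhibitor of neutrophil elastase at mucosal surfaces, Serpina3n encodes a secreted serpin of the antichymotrypsin family, and Serping1 encodes the C1 inhibitor, which blocks the complement proteases C1r and C1s.

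The inhibitors fell into 3 patterns over the classes. Timp2, Timp3, Serpina3n and Serping1 were highest in a fibroblast-like class. So was Timp1, but only by 1.07 times (0.959 to 1.20) over smooth muscle cell-like cells, and its leading class changed under some alternatives. Cst3 and Cstb were highest in dendritic cell-like and macrophage-like cells respectively. Slpi was highest in plasma cell-like and neutrophil-like cells. The number of classes in which a gene reached 100 CPM ran from 2 for Serpina3n to all 25 for Cst3. In 3 of the 8 inhibitors, Timp2, Slpi and Serpina3n, the leading class was at least 2-fold above the next, which was also true of 28.8% of the 5661 genes that reached 100 CPM in a class. Without library 3 this held for Slpi alone, and without library 7 for Timp2 alone. In 3 of them, Timp3, Serpina3n and Serping1, over 50% of the UMIs came from 1 class, against 19.3% of all genes. The name of the leading class was kept by 6 to 8 of the 8 genes under every alternative run. Alternatives that reclustered the cells also named them anew, so a kept name could cover other cells. Without library 2 Timp2 stayed highest under the adventitial fibroblast-like name, but with 1106 CPM against 2081 in the main setting.

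**Figure D1:**
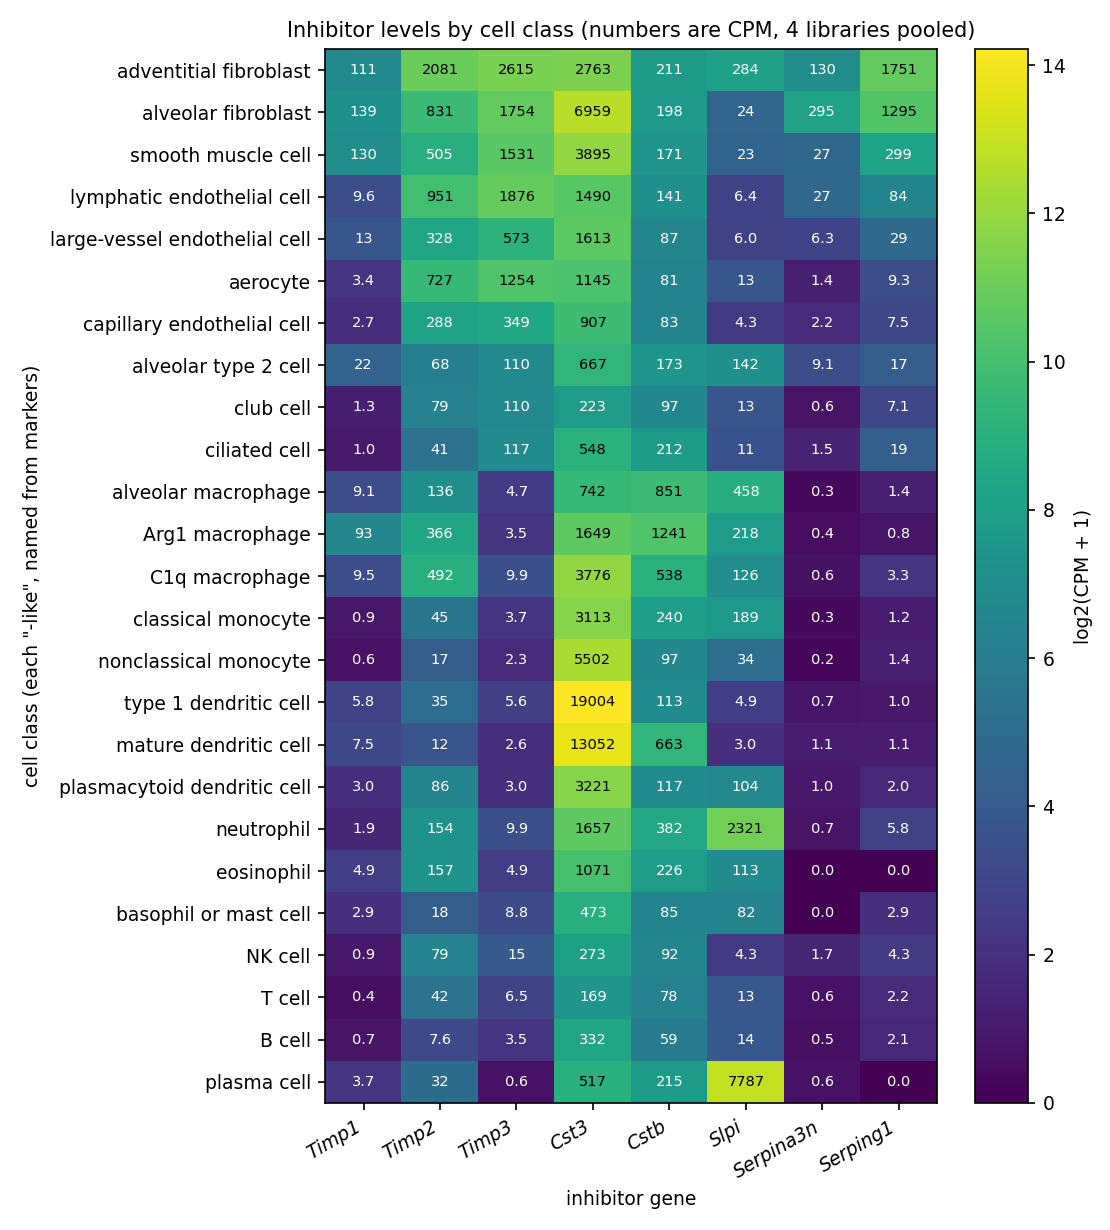
Levels of the 8 inhibitors (columns) in the 25 named cell classes (rows) of libraries 1, 2, 3 and 7 pooled, with color on a log2(CPM + 1) scale and the CPM printed in each cell. Timp2, Timp3, Serpina3n and Serping1 are highest in a fibroblast-like row, and Timp1 is similar in alveolar fibroblast-like (139 CPM) and smooth muscle cell-like cells (130). Cst3 reaches 19004 CPM in the mixed class named type 1 dendritic cell-like, and Slpi reaches 7787 CPM in plasma cell-like cells.

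Timp1 (chromosome X, 20870166 to 20874735, plus strand, in GRCm38), for the inducible member of the TIMP family, had similar levels in 2 classes. Alveolar fibroblast-like cells had 139 CPM (134 to 145) and smooth muscle cell-like cells 130 (117 to 144), a ratio of 1.07 (0.959 to 1.20). Adventitial fibroblast-like cells followed with 111 CPM and Arg1 macrophage-like cells with 93.3, and no other class exceeded 21.6. The smooth muscle value came largely from 1 cell, since a single cell of library 1 held 222 of the 368 Timp1 UMIs of the class. Without the 3 cells of highest count in each class and library, a step added after the data were seen, the leading level fell to 87.8 CPM. Counts per cell were low. Of the alveolar fibroblast-like cells, 37.3% had a Timp1 UMI, or 9.97% once each cell was thinned to 1500 UMIs (8.50 to 11.6). Arg1 macrophage-like cells then had 11.7% (9.96 to 13.7), and B cell-like cells, given as the background from free RNA, had 0.147%, from 0.433% unthinned, while Arg1 macrophage-like cells had 23.7% unthinned. The median depths of the 3 classes were 10939, 6684 and 4026 UMIs, and thinning left out 183, 396 and 26 of their cells.

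Within the Arg1 macrophage-like class, Timp1, which was left out of the clustering, differed between clusters. Cluster 7, with 879 cells led by Arg1, Ccl24 and Mmp12, had 249 CPM (235 to 264). Cluster 11, with 710 cells led by Mmp12 and Gpnmb, had 29.8 (26.7 to 33.1). The former was shallow, with a median of 2084 UMIs against 14456. Both clusters were present in every library, and within each of libraries 1, 2 and 7 cluster 7 had more Timp1 than cluster 11. The pairs were 102 and 26.6 CPM in library 1, 245 and 16.1 in library 2, and 287 and 52.4 in library 7. In library 3 the 54 cells of cluster 7 held no Timp1 UMI, which allows up to 70.5 CPM, and cluster 11 had 21.4.

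Timp2 (chromosome 11, 118301069 to 118355740, minus strand), the TIMP that also takes part in activating MMP2, was highest in adventitial fibroblast-like cells, at 2081 CPM (2031 to 2133). This was 2.19 times (2.07 to 2.32) the 951 CPM of lymphatic endothelial cell-like cells. Alveolar fibroblast-like cells had 831 CPM and aerocyte-like cells, which are capillary endothelial cells specialized for gas exchange, had 727. Outside the stroma and endothelium it was highest in the macrophage classes, with 492 CPM in C1q macrophage-like and 366 in Arg1 macrophage-like cells. By class, 29.5% of its UMIs came from alveolar fibroblast-like cells and 12.0% from adventitial fibroblast-like cells, which were fewer. At a resolution of 1.5 and without library 2, the largest share lay in adventitial fibroblast-like cells, with 23.6% and 26.3%.

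Timp3 (chromosome 10, 86300372 to 86349506, plus strand) had the clearest stromal and endothelial pattern of the 3 TIMPs. It was 2615 CPM in adventitial fibroblast-like cells (2559 to 2672), 1876 in lymphatic endothelial cell-like, 1754 in alveolar fibroblast-like, 1531 in smooth muscle cell-like and 1254 in aerocyte-like cells. Epithelial classes were lower. In single libraries with at least 20 cells of the class, ciliated cell-like cells had 59.4 to 216 CPM. Alveolar type 2 cell-like cells had 52.2 to 138, and club cell-like cells 93.6 to 108. Among the leukocyte classes NK cell-like cells had 14.7 CPM (8.56 to 23.5), and all others had below 10. Alveolar fibroblast-like cells held 53.5% of its UMIs. At a resolution of 1.5 and without library 2, adventitial fibroblast-like cells held the largest share, with 43.4% and 61.4%. Timp3 was uneven in the endothelium: 573 CPM in large-vessel and 349 in capillary endothelial cell-like cells, both below aerocyte-like cells.

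Cst3 (chromosome 2, 148871722 to 148875692, minus strand) was the most widely detected of the 8. Its level ran from 169 CPM in T cell-like cells to 19004 (18935 to 19074) in type 1 dendritic cell-like cells, which alone held 40.8% of its UMIs. Mature dendritic cell-like cells followed with 13052 CPM, a ratio of 1.46 (1.44 to 1.47), then alveolar fibroblast-like cells with 6959 and nonclassical monocyte-like cells with 5502. The dendritic class was mixed, so it was split afterwards by the marker UMIs of each cell. The 327 cells with Xcr1 or Clec9a but none of Cd209a, Mgl2 and Clec10a had 25448 CPM of Cst3 (25317 to 25580). The 430 cells with the opposite markers had 11416 (11332 to 11499). A further 152 cells with UMIs of both sets had 25047, close to the former group, and 46 with neither had 6022. The order of the first 2 groups held in each library, with 24732 against 7485 CPM in library 1, 26824 against 14518 in library 2, 23749 against 8966 in library 3, and 24396 against 13820 in library 7. The first group varied little between libraries, and the second was low in libraries 1 and 3 and high in libraries 2 and 7.

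Cstb (chromosome 10, 78425669 to 78427622, plus strand) was highest by class in Arg1 and alveolar macrophage-like cells, and reached 100 CPM in 16 of the 25 classes. It was 1241 CPM in Arg1 macrophage-like cells (1224 to 1259), 851 in alveolar macrophage-like (843 to 860), 663 in mature dendritic cell-like and 538 in C1q macrophage-like cells. The ratio of the first to the next was 1.46 (1.43 to 1.48). The alveolar and Arg1 macrophage-like classes held 45.7% and 23.1% of its UMIs. Neutrophil-like cells had 382 CPM over the class, but their clusters lay far apart. Cluster 31, with 143 cells led by Il1f9, Ccl4, Hcar2 and Acod1, had 3047 CPM (2874 to 3228). Library 7 held 109 of these cells and most of their Cstb UMIs, and without it the level was 1725 CPM. Cluster 3, with 1393 cells led by S100a9, S100a8 and Retnlg, had 203 (190 to 217), and cluster 34, with 123 cells, had 174. Cluster 31 had less Slpi than cluster 3, at 1318 against 2856 CPM, or 2009 against 2951 without library 7.

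Slpi (chromosome 2, 164354070 to 164389095, minus strand) had 2 kinds of source. In neutrophil-like cells it was spread over the class: 90.3% of cells had a UMI, the level was 2321 CPM (2282 to 2360), and no cell held more than 59 UMIs. After thinning, 84.0% of neutrophil-like cells (82.1 to 85.8) and 1.54% of B cell-like cells had a UMI, from 90.3% and 5.19% at median depths of 2860 and 4026 UMIs. Alveolar macrophage-like cells had 458 CPM and held 35.4% of its UMIs, against 23.0% in neutrophil-like cells. Neutrophil-like cells held the larger share after thinning, with 59.6%, without library 1, with 27.9%, at a mitochondrial limit of 5%, with 30.4%, and at a resolution of 1.5, with 23.0%. Plasma cell-like cells had the highest level, 7787 CPM (7651 to 7925), from only 78 cells. That level was 3.36 times (3.27 to 3.44) that of neutrophil-like cells, or 1.77 times without library 7, when it was 4046 CPM.

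The plasma cell value came from few cells. Of the 78 cells, 33 had no Slpi UMI, and 11 cells with at least 100 UMIs held 96.2% of the Slpi UMIs of the class. None of these 11 was called a doublet by Scrublet, which called 13 of the 78. In the highest cell 3189 Slpi UMIs made up 9.26% of all its UMIs. No neutrophil-like or B cell-like cell and 1 alveolar macrophage-like cell held 100 or more. Adventitial fibroblast-like cells had 2 such cells in library 3, with up to 166 UMIs, and 2 in library 7, with up to 153. The 3 highest of these fibroblast-like cells held 77.2% and 98.2% of the Slpi UMIs of their class in those libraries. Few cells also carried the Slpi of C1q macrophage-like cells in library 3, at 517 CPM. Without the 3 highest cells of each library, the highest value in that class was 37.3. The plasma cell-like cells were grouped, after this was seen, by their heavy chain of highest count. Of the 8 cells led by Ighg1, 7 held 100 or more Slpi UMIs, with a median of 859 and a level of 50202 CPM. The 1 cell led by Ighg2c was the cell with 3189. The 26 cells led by Igha had 1399 CPM and 3 such cells, and the 43 led by Ighm had 226 CPM and none. Not all of the 78 cells had the markers of plasma cells. Of the 43, 22 held at most 1 UMI of Jchain, the joining chain of secreted antibodies, with 1 to 86 Ighm UMIs, and 11 of these were called doublets. The other 21 held 134 to 8525 Ighm UMIs and 201 CPM of Slpi, and none reached 100 Slpi UMIs. Over all heavy chains, the 55 cells with more than 1 Jchain UMI included all 11 cells with at least 100 Slpi UMIs. By library, the class had 12986 CPM in the 26 cells of library 1, 621 in the 22 of library 2, 70.8 in the 9 of library 3 and 11797 in the 21 of library 7. All cells led by Ighg1 or Ighg2c were in libraries 1 and 7. Without the 3 cells of highest count in each class and library, neutrophil-like cells led with 2254 CPM. This step takes a larger part of the 78 plasma cell-like cells than of the 1659 neutrophil-like cells.

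**Figure D2:**
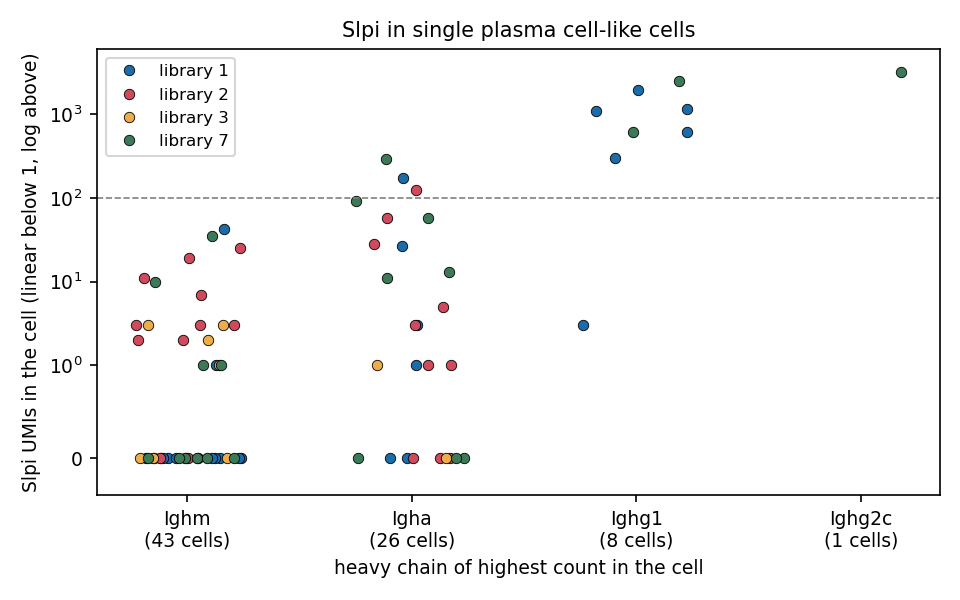
Slpi UMIs in each of the 78 plasma cell-like cells (vertical axis, linear below 1 and logarithmic above), grouped by the heavy chain of highest count and colored by library, with a dashed line at 100 UMIs. Of the 9 cells led by Ighg1 or Ighg2c 8 lie above the line, as do 3 of the 26 led by Igha and none of the 43 led by Ighm.

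Serpina3n (chromosome 12, 104406729 to 104414329, plus strand) was the most restricted of the 8. It was 295 CPM in alveolar fibroblast-like cells (287 to 303), which held 88.8% of its UMIs, and 130 in adventitial fibroblast-like cells (117 to 143), a ratio of 2.27 (2.05 to 2.52). Lymphatic endothelial cell-like cells had 27.4 CPM and all other classes less, with no UMI in basophil or mast cell-like cells, which allows up to 8.76 CPM, and in eosinophil-like cells, which allows up to 14.7. Serping1 (chromosome 2, 84765387 to 84775444, minus strand) had the same pair of sources in the other order. It was 1751 CPM in adventitial fibroblast-like cells (1705 to 1799), 1295 in alveolar fibroblast-like cells (1279 to 1311) and, well below both, 299 in smooth muscle cell-like cells. Alveolar fibroblast-like cells held 77.7% of its UMIs and adventitial fibroblast-like cells 17.1%. Over the 25 classes the correlation of log2(CPM + 1) between Serpina3n and Serping1 was 0.95, the highest among the 28 pairs of inhibitors. These values share libraries and class names and are given as a description. When clusters were cut at a resolution of 1.5 or library 2 was left out, Serpina3n was highest in the cells then named adventitial fibroblast-like, with 375 CPM in both cases. The cells then so named also held most of the UMIs of both genes. They held 63.0% and 91.0% for Serpina3n, and 54.3% and 84.0% for Serping1, so the split between the 2 fibroblast names was not stable.

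The libraries differed widely in their whole levels of the stromal inhibitors. Timp3 had 81.6, 512, 378 and 93.5 CPM in libraries 1, 2, 3 and 7, and Serping1 had 42.4, 250, 213 and 41.0. For both genes libraries 2 and 3 were high, libraries 1 and 7 were low, and highest and lowest differed 6.27 and 6.10 times. Fibroblast numbers moved with these values, and a low level from fewer cells cannot be told apart from less RNA per cell in the whole libraries: libraries 1, 2, 3 and 7 held 91, 1115, 428 and 54 alveolar and 9, 116, 115 and 12 adventitial fibroblast-like cells. When every library was given the same class makeup, by weighting its class levels with the share of each class in the pooled UMIs, the range fell to 1.55 for Timp3 and 1.16 for Serping1. Serpina3n had 14.6, 46.9, 39.4 and 10.5 CPM as sampled, and 65.3, 29.4, 35.4 and 48.0 at equal makeup, so that the order of the libraries turned. Timp1 went the other way from Timp3, from a range of 3.46 as sampled to 6.23 at equal makeup, with 64.1, 22.8, 14.9 and 92.6 CPM.

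At equal makeup 2 of the 8 inhibitors, Timp1 and Serpina3n, had a library at least 2-fold above another, and so did 8.2% of all 5661 genes. The ranges of the remaining 6 genes ran from 1.16 for Serping1 to 1.74 for Cstb. Serpina3n had a range of 2.22, which dropped to 1.75 without library 1, 1.61 without library 2 and 1.76 without the 3 cells of highest count in each class and library. Timp1 kept a range over 3 in all alternatives, the lowest being 3.52 without those cells.

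**Figure D3:**
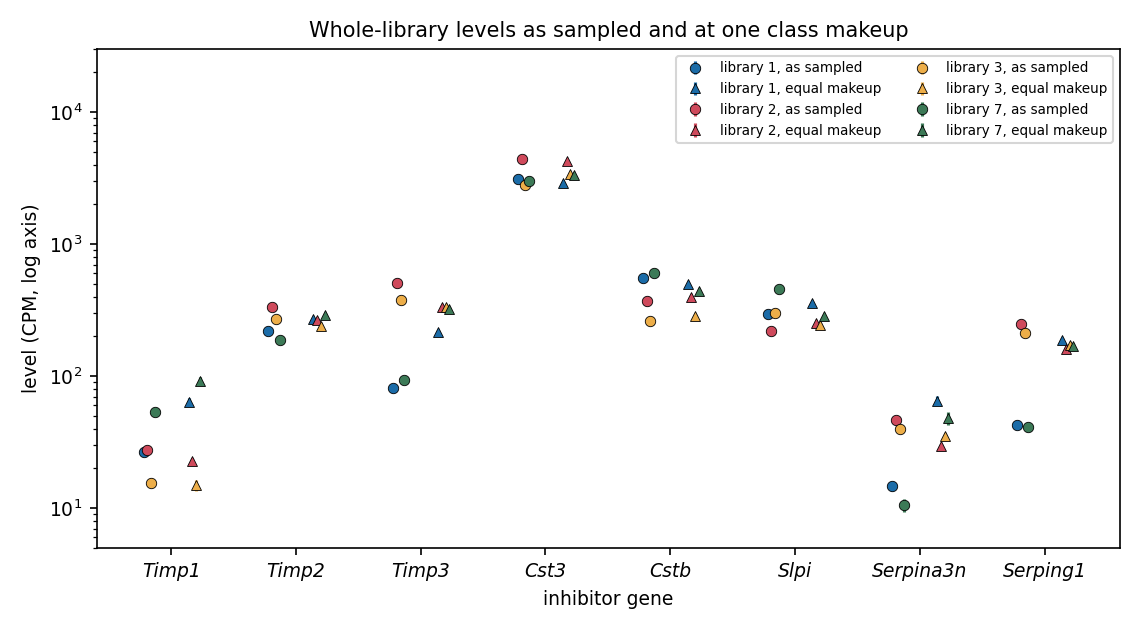
Level of each inhibitor (CPM, logarithmic axis) in libraries 1, 2, 3 and 7 as sampled (circles, exact 95% counting intervals) and at one class makeup (triangles, intervals from the counting error). The circles of Timp3 and Serping1 spread over 6.27 and 6.10 times and their triangles over 1.55 and 1.16, while the triangles of Timp1 spread over 6.23.

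Inside alveolar fibroblast-like cells, Timp1 had 396 CPM in library 1 (358 to 437), 106 in library 2 (101 to 112), 103 in library 3 (94.2 to 112) and 651 in library 7 (591 to 716). The value of library 7 rested on 1 cell, which held 375 of its 432 Timp1 UMIs. Without the 3 highest cells of each library, the values were 207, 87.8, 66.9 and 68.0 CPM, so that library 1 stayed above the others and library 7 did not. The thinned share of cells with a Timp1 UMI was 21.5% in library 1 and 9.33%, 9.25% and 9.80% in libraries 2, 3 and 7. Serpina3n in the same cells had 534 (490 to 582), 253 (244 to 262), 335 (319 to 352) and 439 (390 to 492) CPM, and the order of the libraries was the same without the 3 highest cells up to libraries 3 and 7, which then had 319 and 318. Serping1 was steadier, at 1562, 1237, 1381 and 1384 CPM. Timp2 ranged from 787 to 1070, and Timp3 from 1146 in library 1 to 1922 in library 3. Of the 7 inhibitors with at least 100 CPM in this class, 2 had a 2-fold range, Timp1 and Serpina3n, against 14% of all genes at that level. The range of Serpina3n fell from 2.11 to 1.91 without the 3 highest cells of each library, and that of Timp1 from 6.32 to 3.09. Those cells held 20.9%, 6.86%, 5.61% and 33.7% of the Serpina3n UMIs of the class in libraries 1, 2, 3 and 7. The step trims most where the class has few cells, in libraries 1 and 7, which were also the highest. Part of the fall can thus come from the step itself.

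Timp3 also varied in the endothelium. In aerocyte-like cells it was 1673, 1222, 899 and 2687 CPM in libraries 1, 2, 3 and 7, the last from 22 cells, and in capillary endothelial cell-like cells 280, 377, 225 and 671. In both of these classes library 3 was lowest and library 7 highest, with or without the 3 highest cells. The order was another in large-vessel endothelial cell-like cells, with 441, 595, 655 and 610 CPM, where library 1 was lowest and library 3 highest.

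In Arg1 macrophage-like cells Timp1 had 34.3, 55.9, 19.8 and 197 CPM in libraries 1, 2, 3 and 7. Library 7 stood apart with or without its 3 highest cells (176 without them), and 545 of its 664 cells were in cluster 7, while 479 of the 678 of library 1 were in cluster 11. Timp2 had 444, 262, 86.4 and 317 CPM, Cst3 1495, 3120, 3945 and 1137, and Cstb 1409, 788, 491 and 1231. Over the class, Cst3 was thus high in the libraries where Cstb was low. The order of the libraries for Cst3 was not the same in both clusters: it was 1477, 3546, 4184 and 1707 CPM in cluster 11, and 1660, 1095, 1058 and 783 in cluster 7, where library 1 was highest. Library 3 gave only 78 cells, 1 of which held 32.9% of its Cst3 UMIs. Of the 4 inhibitors at 100 CPM or more in this class, 3 had a 2-fold range, against 23.4% of genes. The ranges of Timp2 and Cstb rested on library 3, since libraries 1, 2 and 7 lay within 2-fold of each other. The library 3 cells were also shallow, with a median of 944 UMIs against 10292 in library 1. In C1q macrophage-like cells Cst3 had 2397, 5856, 4268 and 2862 CPM, with libraries 2 and 3 above libraries 1 and 7, and 2 of 4 inhibitors, Cst3 and Slpi, had a 2-fold range, against 12.8% of genes. That of Slpi, 16.4-fold, was carried by few cells, since 3.23% to 13.4% of the cells had a UMI. In the type 1 dendritic cell-like class neither Cst3 nor Cstb had one, against 8.23% of genes.

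In neutrophil-like cells Slpi was nearly level, at 2432, 2592, 2185 and 2235 CPM in libraries 1, 2, 3 and 7. Cstb was 371, 259, 222 and 724 CPM, and library 7 was highest. Cluster 31 moved with this value, with 11, 10, 13 and 109 cells in the same order. In cluster 3 alone Cstb was 112, 243, 237 and 138 CPM, so that library 7 was below libraries 2 and 3 there. Cst3 had 1794, 2056, 1872 and 953 CPM over the class, with library 7 lowest. In cluster 3 alone it had 780, 1322, 993 and 994 CPM, with library 1 lowest and libraries 3 and 7 level. Cluster 34 was deeper, with a median of 9168 UMIs against 2795 in cluster 3, and 13.8% of its cells were called doublets, against 0.646%. With 18, 32, 64 and 9 cells, it had 3364, 4731, 4057 and 1463 CPM of Cst3. The Cst3 values of the class include these cells. Of 4 inhibitors in the class, 2 had a 2-fold range, Cst3 and Cstb, against 13.2% of genes. That of Cst3 fell from 2.16 to 1.88 without the 3 highest cells of each library.

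**Figure D4:**
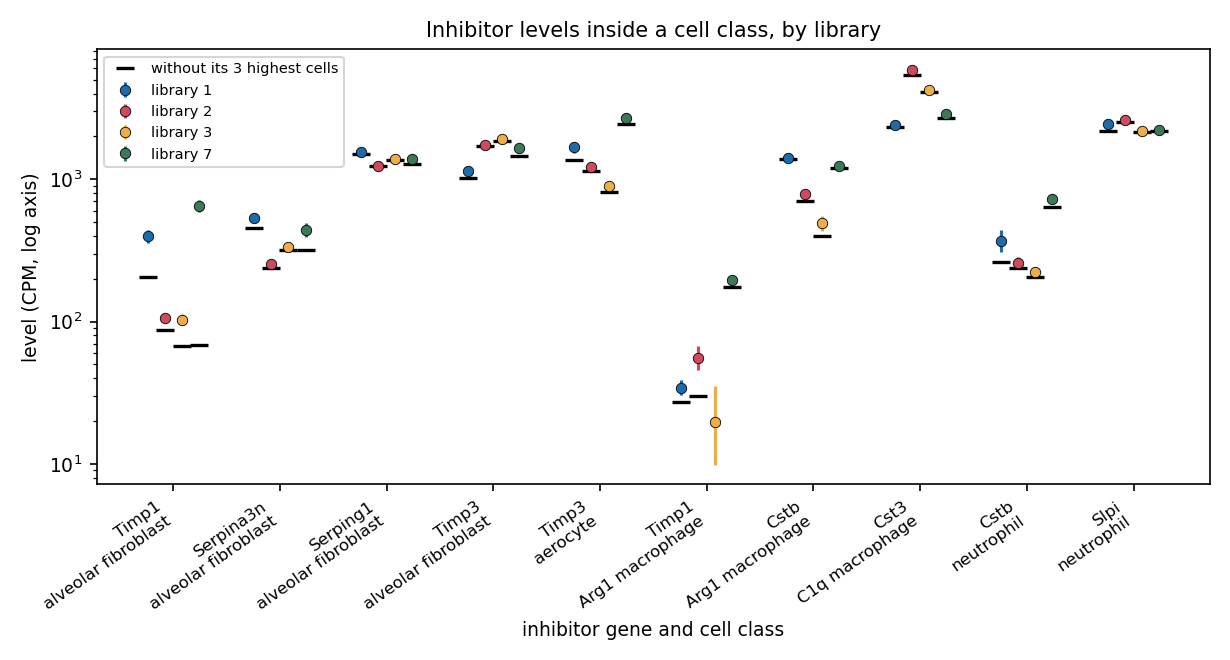
Level of an inhibitor inside 1 cell class (CPM, logarithmic axis) by library, with exact 95% counting intervals, and black bars for the value without the 3 cells of highest count (none is drawn where no UMI is left). The Timp1 point of library 7 in alveolar fibroblast-like cells falls from 651 to 68.0 CPM without them, that in Arg1 macrophage-like cells from 197 to 176, and Slpi in neutrophil-like cells lies between 2185 and 2592 CPM.

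The listed targets of the inhibitors were summed by class. A UMI count at the 3′ end is not scaled by length and capture differs between genes, so the ratio of inhibitor to protease is compared only between classes. Classes also differ in which genes make up each sum. Differences in capture can thus remain in these comparisons, which are given as a description. For the cysteine proteases (Ctsb, Ctsc, Ctsh, Ctsk, Ctsl, Ctss, Ctsz and Lgmn, which work in lysosomes or after secretion), Arg1 macrophage-like cells had the highest sum, 18148 CPM, against 2890 of Cst3 and Cstb, a ratio of 0.16. Alveolar macrophage-like cells had 0.18 and C1q macrophage-like cells 0.50. Low ratios were not particular to macrophages. Between these values lay alveolar type 2 cell-like (0.29), plasma cell-like (0.30), B cell-like (0.31) and club cell-like cells (0.41). The ratio was 1.44 in neutrophil-like, 3.15 in alveolar fibroblast-like, 3.76 in mature dendritic cell-like and 9.62 in type 1 dendritic cell-like cells. In Arg1 macrophage-like cells it was 0.15, 0.36, 0.78 and 0.11 in libraries 1, 2, 3 and 7, and in C1q macrophage-like cells 0.32, 0.81, 0.69 and 0.37. Both classes had lower ratios in libraries 1 and 7 than in libraries 2 and 3. The Arg1 value of library 3 came from only 78 cells, and a single cell held much of their Cst3, as given above. The split was not particular to these classes. Alveolar macrophage-like cells had 0.16, 0.18, 0.22 and 0.15, and neutrophil-like cells 1.09, 1.66, 1.56 and 1.19, in the same order. It was absent in alveolar fibroblast-like cells, where library 7 was highest with 3.59 and library 3 had 2.19.

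For the 8 matrix metalloproteinases, the ratio of the 3 TIMPs to them was lowest in neutrophil-like and mature dendritic cell-like cells, at 0.07 in both. Not all leukocyte classes had low ratios, with 1.81 (1.55 to 2.12) in T cell-like and 1.44 (1.05 to 1.99) in B cell-like cells. Nonclassical monocyte-like cells had 1.125 (0.873 to 1.45). These ratios divide low sums, 49.2 over 27.1, 11.9 over 8.22 and 20.4 over 18.1 CPM in the same order. Free RNA was not separated from them. Arg1 macrophage-like cells had 462 CPM of TIMPs and 3352 of metalloproteinases, mostly the macrophage elastase gene Mmp12 with 2665. Neutrophil-like cells had 166 and 2378 CPM, mostly Mmp9, with ratios of 0.14 and 0.07. Alveolar fibroblast-like cells had 2724 and 1104 CPM, a ratio of 2.47, and adventitial fibroblast-like cells 4.74. Aerocyte-like cells had 72.9 (59.7 to 90.1), which divides 1985 CPM of TIMPs by a low sum of 27.2, with free RNA again not separated. The neutrophil serine proteases Elane, Prtn3 and Ctsg, whose products are each inhibited by SLPI or by serpins, were sparse as transcripts. None of them reached 100 CPM in a class. Neutrophil-like cells had 23 UMIs of the 3 genes together, or 3.93 CPM. The sum was 58.7 CPM in plasmacytoid dendritic cell-like cells, 29.6 in classical monocyte-like cells and 7.88 in alveolar fibroblast-like cells, where 124 cells held 151 UMIs. All 1300 such UMIs of T cell-like cells were in 1 cell, as were 377 of the 378 of alveolar type 2 cell-like cells. The complement genes C1ra and C1s1, whose products the C1 inhibitor blocks, were highest in the same 2 classes as Serping1, with 1191 CPM together in adventitial and 626 in alveolar fibroblast-like cells.

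**Figure D5:**
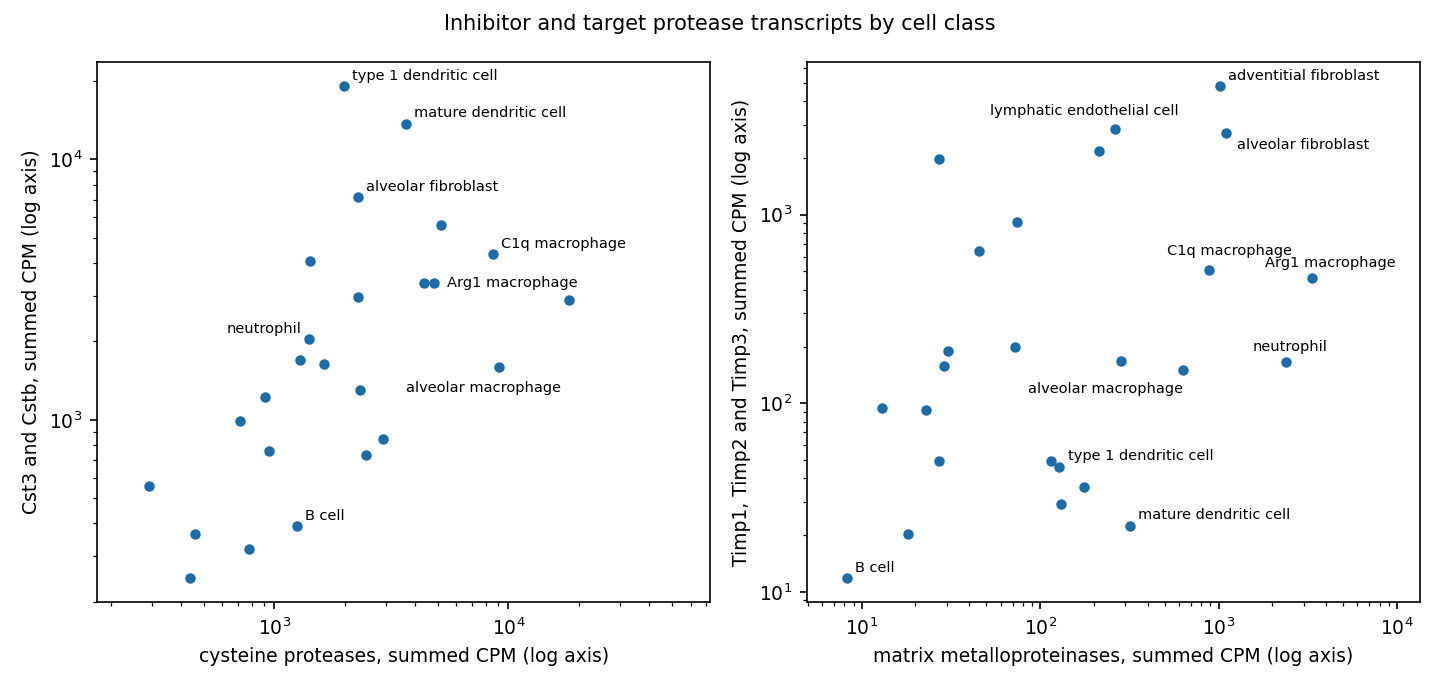
Summed levels (CPM, logarithmic axes) of inhibitors against their target proteases with 1 point for each class where both sums are above 0, for Cst3 and Cstb against 8 cysteine proteases (left) and Timp1, Timp2 and Timp3 against 8 matrix metalloproteinases (right). Arg1 macrophage-like cells have the highest protease sums, 18148 and 3352 CPM, at inhibitor sums of 2890 and 462.

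Of 34 other protease inhibitors listed, 17 reached 100 CPM in a class, and the class of highest level differed between them. That class often did not hold the largest share of the UMIs. The share was largest in alveolar fibroblast-like cells for Serpine2 (74.0%) and Serpinh1 (56.9%). It was largest in alveolar type 2 cell-like cells for Wfdc2 (43.4%). For Serpinb6a (33.1%) and Wfdc17 (32.2%) it was largest in alveolar macrophage-like cells. Adventitial fibroblast-like cells led for Serpinh1 (1331 CPM), a collagen chaperone that inhibits no protease, for Serpinf1 (654) and for Serpinb6a (536). Smooth muscle cell-like cells led for Timp4 (121) and for Serpine2 (562), for protease nexin, with 529 in alveolar fibroblast-like cells. Neutrophil-like cells led for Wfdc17 (1257), and for Stfa2l1 (617), a stefin whose near copies may share its reads. NK cell-like cells led for Serpinb9 (814), which inhibits granzyme B, Serpinb6b (499) and Cst7 (160). For Cst7 the basophil or mast cell-like class followed with 128, a ratio of 1.25 (0.892 to 1.77). Airway epithelium had Wfdc2, at 4971 CPM in club cell-like cells, and Spint2, at 710 in ciliated cell-like cells. Others were Serpinb2 in eosinophil-like cells (457), Itih5 in lymphatic endothelial cell-like cells (281), Serpina3g in large-vessel endothelial cell-like cells (128) and Serpinb1a in the basophil or mast cell-like class (198). Of the 3 listed genes for α1-antitrypsin, Serpina1a had no UMI, Serpina1b 11 and Serpina1c 1.

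The genes whose levels followed each inhibitor most closely over the 25 classes, by Pearson correlation of log2(CPM + 1) among 5660 other genes, differed between the inhibitors. They were Lhfp (0.98), Serpinh1 (0.97) and Tns2 (0.97) for Timp3. For Serpina3n they were Igsf10 (0.96), Gas1 (0.95) and Serping1 (0.95), and for Serping1 they were Serpina3n (0.95), Fbn1 (0.94) and Gas1 (0.94). Timp2 was nearest to C1ra (0.87), Tspan4 (0.87) and Pmp22 (0.85), and Timp1 to Nnmt (0.86), Slc36a2 (0.84) and Gaa (0.84). Cstb was nearest to Plekhm2 (0.87), Ftl1-ps1 (0.87) and Clec4n (0.86), and Cst3 to Mvp (0.82), Marcks (0.80) and Ccdc88a (0.79). Slpi had the weakest neighbors, Mmp8 (0.76), Cib2 (0.72) and Clec4d (0.71).

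The promoters of the 2 inhibitors that differed most between libraries at equal makeup are shown for comparison, as the 250 bases before the RefSeq gene start in GRCm38.p6. The Timp1 stretch is chrX:20869916-20870165 on the plus strand, and the Serpina3n stretch is chr12:104406458-104406707 on the plus strand. Capitals mark a GC box (GGGCGG) or a CCAAT box (CCAAT) on either strand.
Timp1: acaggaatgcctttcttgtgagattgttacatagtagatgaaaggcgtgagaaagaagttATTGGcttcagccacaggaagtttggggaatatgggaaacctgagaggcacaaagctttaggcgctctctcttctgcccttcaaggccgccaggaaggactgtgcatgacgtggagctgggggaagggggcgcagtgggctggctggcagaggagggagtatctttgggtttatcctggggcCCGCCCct
Serpina3n: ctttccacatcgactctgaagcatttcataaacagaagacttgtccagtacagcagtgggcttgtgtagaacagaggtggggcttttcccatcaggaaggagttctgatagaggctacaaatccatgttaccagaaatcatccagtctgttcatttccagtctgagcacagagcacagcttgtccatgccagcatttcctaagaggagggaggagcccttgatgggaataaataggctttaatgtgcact
Both motifs are present in the Timp1 stretch, each on the minus strand, and neither in that of Serpina3n. Promoters were found for 6 of the 8 inhibitors and not for Serping1 and Cstb. Over the RefSeq windows, which add the first 50 transcribed bases, a GC box was present for Timp1, Timp2, Timp3 and Cst3 and in 35.7% of all 32851 windows, and a CCAAT box for Timp1 and Timp2 and in 37.4%. A TATA box (TATAAA, 13.6% of windows), an AP-1 site (TGACTCA, 5.20%) and a STAT site (TTCNNNGAA, 8.30%) were searched on both strands, and none of the 6 windows held these letters. Timp1 overlaps Syn1 and Timp3 overlaps Syn3, both on the opposite strand. Timp2 overlaps Cep295nl and Slpi overlaps Mir7678, both on the same strand. The labels and methods do not state whether counting used strand, so reads in these overlaps are uncertain. Serpina3n belongs to a family of near copies that could share reads.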

How the data were processed

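The authors deposited a matrix of whole-number UMI counts, with genes in rows and cells in columns and no scaling applied. The submitters' processing notes name Cell Ranger, STAR and mm10, the matrix header gives Cell Ranger 3.1.0, and, per the methods, reads of deeper libraries were down-sampled where the aggregation called for it. The labels give version v3 of the kit and the supplementary methods another, so the kit is uncertain. GEO lists 13 samples, and no library number could be matched to any of them. Gene positions were taken from GENCODE M21, which holds 30934 of 31053 identifiers.

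Cells of libraries 1, 2, 3 and 7 with at most 10% mitochondrial UMIs were kept. Each cell was scaled to 10000 counts before a log transform. From the 2000 genes of highest dispersion, excluding all listed inhibitors and proteases, 30 principal components were taken. Mutual nearest neighbors (20 per cell) aligned the libraries, and leidenalg 0.10.2 at a resolution of 0.8 gave the clusters. A cluster took the name of the marker list with the highest mean z-score that had at least 3 markers in 10% of its cells and no fewer markers among its 10 top genes than any other list. Very shallow clusters could take only the first name, and only with a marker among those genes. Clusters with over 50% of cells called doublets by Scrublet (scanpy 1.11.5) stayed unnamed, a rule set after the data were seen, and doublets were otherwise kept. The 25 classes each had at least 50 cells. Named genes were all inhibitors, the other listed genes that reached 100 CPM in a class, and the 3 genes of highest correlation with each inhibitor, except for an item that is not reported here. Intervals were computed in scipy 1.17.1, and a count of 0 was read as allowing 3. For thinned shares each cell was drawn down to 1500 UMIs, and shallower cells were left out.

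The inhibitors, lists and markers were chosen with earlier results of these data known. Every table column of per-sample values was used. The leading class, the range over libraries and the counting intervals were tested on simulated class totals without spread between cells. Clustering, naming, alignment, doublet calls and thinning were not tested in this way. Alternatives covered the filters, doublets, resolution, alignment, genes used, weighting, depth and each library left out. The splits by heavy chain, Jchain and dendritic cell markers, and leaving libraries out of the neutrophil-like clusters, were added after seeing the data.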

Additional observations from a re-analysis of the deposited data

Results flagged for a closer look

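The inhibitors were also counted in libraries 4, 5 and 6, which no comparison above used and none of them known to be a control. Of the 8, 5 were above the limit of 3 counts that a count of 0 allows. Pooled over 91797968 UMIs, they were Cst3 with 818 CPM, Slpi with 187, Cstb with 70.1, Timp2 with 21.9 and Timp3 with 0.185. Cst3 was 1445 CPM in library 4, 493 in library 5 and 549 in library 6, and Slpi was 240, 138 and 187 in the same order. Timp1 had 1 UMI, and Serpina3n and Serping1 had none, which allows up to 0.0327 CPM. The inhibitors with over 50% of their UMIs in fibroblast-like cells of the lung libraries thus had between 0 and 17 UMIs here. The cells of libraries 4, 5 and 6 were not clustered or named. A low count there cannot be told apart from a lack of fibroblasts among the cells sampled.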

How the results depend on the processing

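Libraries could not be compared as groups, so every value describes these 4 libraries, and cell names were rebuilt from markers. No paired analysis was possible because the library numbers match no labelled sample, and no result came from a test. Each of the 4 counts over the inhibitors was recomputed under 14 alternatives, the last of which, leaving out the 3 cells of highest count in each class and library, was chosen after seeing the data. That last step takes a larger part of small classes and libraries than of large ones. The count of inhibitors whose leading class kept its name stayed between 6 and 8. Alternatives that reclustered the cells named them anew, so a kept name could cover other cells. The count with over 50% of UMIs from 1 class stayed between 2 and 4. The class itself could change. At a resolution of 1.5 and without library 2, the largest share of the 3 TIMPs, Serpina3n and Serping1 moved from alveolar to adventitial fibroblast-like cells. The count at least 2-fold above the next class fell from 3 to 1 at a resolution of 1.5, where only Slpi was left, and ranged from 1 to 4 when single libraries were left out, with only Slpi left without library 3 and only Timp2 without library 7. The count with a 2-fold range over libraries fell from 2 to 1 at a resolution of 1.5, at a mitochondrial limit of 5% and without the 3 cells of highest count, and ranged from 1 to 2 when single libraries were left out, with Timp1 left each time; the cause was not tested. Timp1 had another leading class under 5 alternatives, with 354 CPM in smooth muscle cell-like cells at the 5% limit and 147 in Arg1 macrophage-like cells after thinning. Slpi led in neutrophil-like cells with the limit of 2 SD on UMIs and genes. When the listed genes were kept in the clustering, it led with 4914 CPM in cells then named plasmacytoid dendritic cell-like. Under the main setting cells of that name had 105 CPM of Slpi and Serpina3n together, so the name then covered other cells as well. Whether these were the plasma cell-like cells was not examined. The leading level of Slpi ran from 2254 to 10617 CPM, and that of Timp1 from 87.8 to 354. With a pseudocount of 10 CPM, none of the 3 genes most like Slpi stayed among its nearest, against 3 of 3 for Cst3, Cstb and Serping1. Among genes reaching 10 CPM, 25.2% led 2-fold, against 28.8%.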
